A study of Mus musculus with 19 samples.

Results

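The pyramidal cells of the mouse hippocampus form 3 successive fields, CA1, CA2 and CA3, and each field has its own set of marker transcripts. The 8 genes described here are markers of these fields, found by their symbol in the array annotation out of 19938 genes measured. Wfs1, Fibcd1, Mpped1 and Man1a mark CA1, Pcp4, Rgs14 and Amigo2 mark CA2, and Bok marks CA3. Each was represented by 1 probe set, the only one with that symbol alone, so no probe set had to be chosen over another.

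RNA was measured on 19 Affymetrix arrays, 1 per sample of hippocampus from C57BL/6J mice that were 6 months old. The genotypes were APPSwe-PS1deltaE9, written APP-PS1 below, and wild-type littermates. APP-PS1 mice express human APP and presenilin 1 transgenes from a prion promoter and form amyloid plaques, so these are 1 transgenic model and not the human disease. From 3 to 6 months of age the mice ate chow with 375 ppm ibuprofen, a cyclooxygenase inhibitor, or the identical chow without it. There were 4 wild-type arrays on control chow and 5 in each of the other 3 groups. Levels are log2 values, so a difference of 1 is a doubling.

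CA1 pyramidal cells send the main output of the hippocampus, CA3 cells drive them through the Schaffer collaterals, and the small CA2 field between them is known for social memory and for resisting long-term potentiation. In Alzheimer's disease CA1 is the field known for early loss of neurons. Among the CA1 markers, Wfs1 encodes wolframin, a membrane protein of the endoplasmic reticulum, and Fibcd1 a membrane receptor with a fibrinogen domain. Mpped1 encodes a protein with a metallophosphoesterase domain, and Man1a a Golgi mannosidase that trims N-glycans. Among the CA2 markers, Pcp4 encodes a small calmodulin-binding protein, Rgs14 a regulator of G-protein signalling that restrains plasticity in CA2, and Amigo2 a cell adhesion protein with leucine-rich repeats. Bok encodes a member of the BCL-2 family of cell death regulators. In whole hippocampus, fewer cells of a field and less RNA per cell cannot be told apart, and several of these genes are also expressed outside their field, Wfs1 and Pcp4 in neocortex and striatum among them.

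Of the 8 markers, 7 had a promoter window in the RefSeq table of GRCm38.p6 used here, and Rgs14 was the other one. The 250 bases before an annotated start are shown for 4 markers from pairs whose levels correlated across arrays. These pairs were Wfs1 with Mpped1, Mpped1 with Pcp4 in opposite directions, and Amigo2 with Rgs14. Bok, which also correlated with Amigo2, is not shown. Capitals mark the GC box GGGCGG on either strand.
Wfs1 (chr5:36988983-36989232, minus strand): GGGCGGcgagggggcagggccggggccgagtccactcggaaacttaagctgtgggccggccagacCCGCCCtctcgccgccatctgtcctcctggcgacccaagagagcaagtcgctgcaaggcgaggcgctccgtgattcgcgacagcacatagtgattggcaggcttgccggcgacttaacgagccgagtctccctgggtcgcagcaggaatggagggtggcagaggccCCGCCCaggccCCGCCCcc
Mpped1 (chr15:83779773-83780022, plus strand): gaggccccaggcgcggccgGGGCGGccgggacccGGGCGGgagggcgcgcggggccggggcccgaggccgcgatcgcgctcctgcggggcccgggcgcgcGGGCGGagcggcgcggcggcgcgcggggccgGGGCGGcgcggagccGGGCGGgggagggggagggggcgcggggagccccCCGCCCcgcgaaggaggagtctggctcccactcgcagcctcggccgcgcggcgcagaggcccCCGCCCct
Pcp4 (chr16:96467356-96467605, plus strand): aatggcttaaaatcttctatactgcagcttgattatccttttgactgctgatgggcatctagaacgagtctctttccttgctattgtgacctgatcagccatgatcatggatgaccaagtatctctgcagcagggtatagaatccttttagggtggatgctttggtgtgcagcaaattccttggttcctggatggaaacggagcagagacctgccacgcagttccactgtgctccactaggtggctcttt
Amigo2 (chr15:97247288-97247537, minus strand): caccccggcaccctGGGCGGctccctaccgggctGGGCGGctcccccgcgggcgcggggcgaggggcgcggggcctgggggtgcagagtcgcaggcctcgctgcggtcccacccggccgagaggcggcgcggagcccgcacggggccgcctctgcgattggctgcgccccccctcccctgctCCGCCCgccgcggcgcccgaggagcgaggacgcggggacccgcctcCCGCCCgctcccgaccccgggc
The windows differed in base composition. Mpped1 held 47 CG dinucleotides and 7 GC boxes, Amigo2 38 and 4, and Wfs1 23 and 4, while Pcp4 held 3 CG dinucleotides and 0 GC boxes. A second annotated start of Mpped1 had 2 CG dinucleotides and 0 GC boxes. Fibcd1 had 34 CG dinucleotides and 1 GC box, Man1a 31 and 2, and Bok 12 and 1. Over all 32851 windows the median was 6 CG dinucleotides, and 32.7% held a GC box on either strand. An E-box (CANNTG, which reads the same on both strands) was in the Wfs1 window and in the second Mpped1 window, against 66.2% of all windows. The cyclic AMP element TGACGTCA (1.55% of windows, the same on both strands) and TATAAA on either strand (12.4% of windows) were in none of the 8 windows of these 7 genes. These matches describe the letters and were not tested for function. Wfs1 and the shown window of Mpped1 both had many CG dinucleotides, 23 and 47, while Pcp4, which ran opposite to Mpped1, had 3. The second Mpped1 window had 2, so the comparison depends on the start chosen. Amigo2 and Bok, which also correlated, had 38 and 12. Whether base composition goes with correlation across arrays was not tested.

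Array medians over all probe sets lay between 8.06 and 8.14, and pairs of arrays correlated at 0.970 to 0.997. A median correlation with the others under 0.99 set 3 arrays apart, namely replicates 1 and 5 of wild-type mice on ibuprofen and replicate 1 of APP-PS1 mice on control chow. Their upper quartiles over all probe sets were 9.945, 9.996 and 9.925, above the 9.73 to 9.84 of the other 16 arrays. Results are therefore also given without these 3 arrays. Labels do not say how mice were pooled or give sex, litter or batch, so p-values measure the spread between these samples. The neurons the tissue label implies were present, with group means of 13.23 to 13.31 for Slc17a7, the glutamate transporter of pyramidal cells, and 10.28 to 10.74 for Prox1, the dentate granule cell factor. Choroid plexus markers, 8 of 9 measured, varied widely by array, with list means of 8.101 to 9.72 in wild-type control, 8.101 to 10.50 in wild-type ibuprofen, 8.29 to 10.60 in APP-PS1 control and 8.41 to 10.37 in APP-PS1 ibuprofen arrays.

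None of the 8 markers passed the threshold, an adjusted p under 0.05 over all genes by limma, in any of the 7 comparisons. The levels of the group means, in order, differed little against their spread, as the plot of levels by array shows. In every gene each pair of neighbouring groups overlapped. The gap between neighbours exceeded the larger of their SDs only for Fibcd1, between wild-type ibuprofen and APP-PS1 control (0.14 against 0.13), and for Bok, between APP-PS1 ibuprofen and wild-type control (0.1220 against 0.1217).

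**Figure D1:**
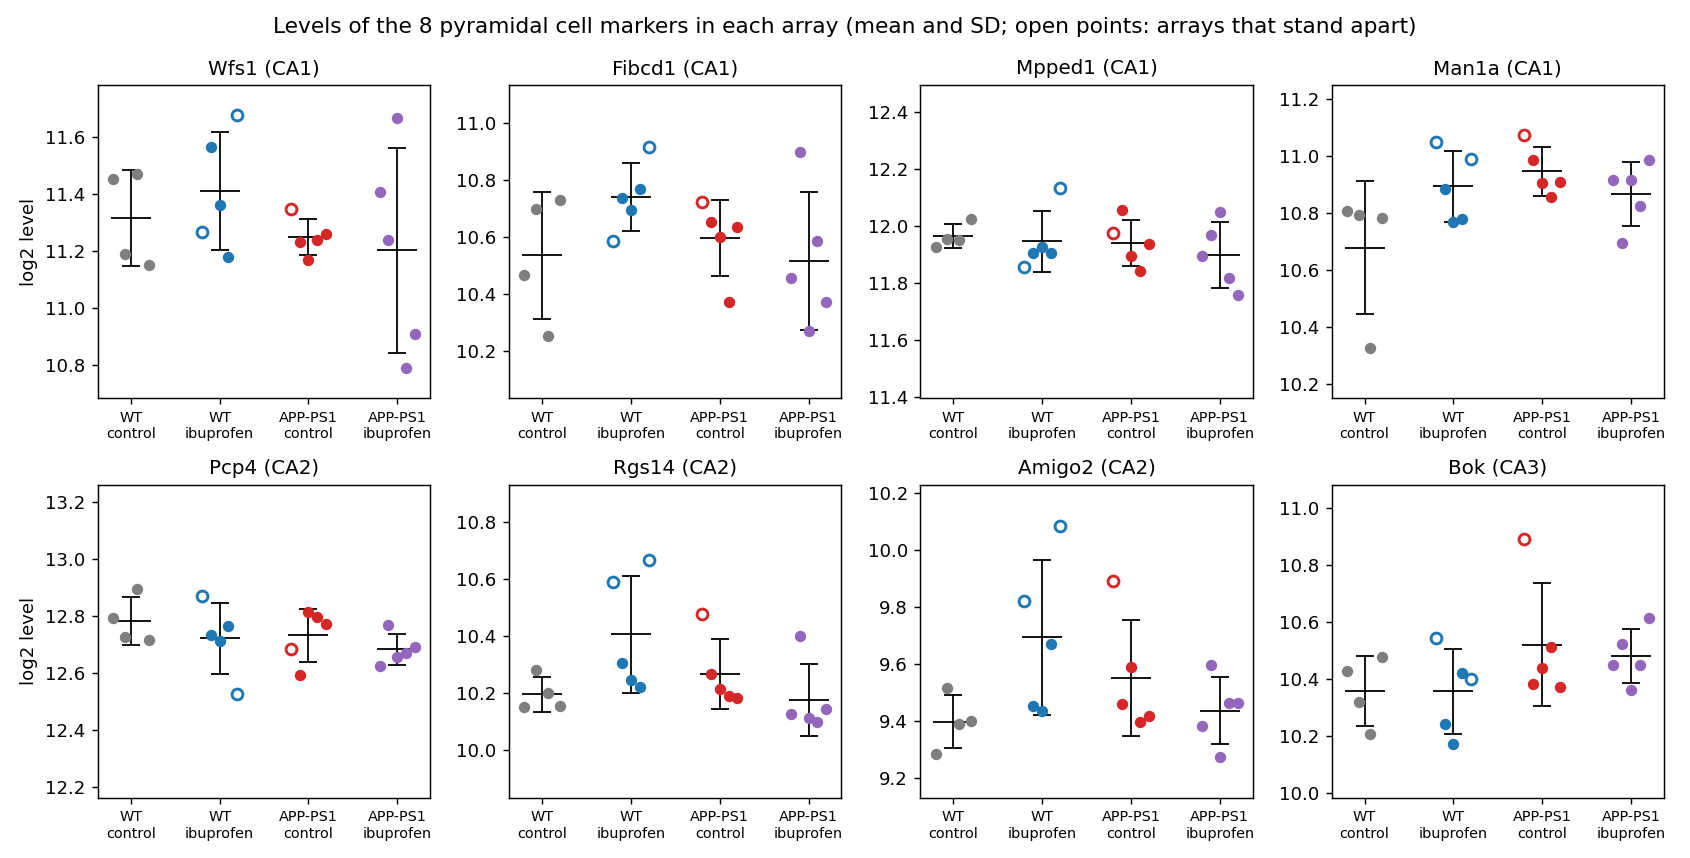
Log2 level (y axis, a span of 1.1 in each panel) of each marker in each array, by genotype and diet (x axis), with replicates from left to right. Bars show the mean and SD, and open points the 3 arrays that stand apart, which hold the 3 highest levels of Rgs14, Amigo2 and Man1a.

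Among the CA1 markers, Wfs1 was the most variable of the 8. Its SD within groups was 0.23, larger than in 95.4% of all genes. In APP-PS1 ibuprofen arrays it read 11.41, 11.24, 11.67, 10.79 and 10.91 in replicates 1 to 5, a mean of 11.20 ± 0.36 (SD, n = 5). In APP-PS1 control arrays it stayed between 11.17 and 11.35, with a mean of 11.25 ± 0.06 (SD, n = 5). The treated arrays thus included values both above and below all untreated ones, and the means hardly differed. In wild-type arrays the Wfs1 mean was 11.32 ± 0.17 (SD, n = 4) without ibuprofen and 11.41 ± 0.21 (SD, n = 5) with it. Its differences ran from -0.21 ± 0.12 (SE) for genotype on ibuprofen chow (adjusted p = 0.281) to 0.09 ± 0.13 (SE) for ibuprofen in wild-type mice (adjusted p = 0.711).

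Fibcd1 was highest in wild-type mice on ibuprofen. It read 10.58, 10.74, 10.70, 10.77 and 10.92 there, and 10.46, 10.90, 10.27, 10.58 and 10.37 in APP-PS1 mice on the same chow. Of the 5 APP-PS1 arrays 3 lay below the wild-type range, 1 was level with the lowest wild-type array and 1 lay above 4 of the 5 wild-type arrays. The means were 10.74 ± 0.12 (SD, n = 5) and 10.52 ± 0.24 (SD, n = 5), a difference of -0.22 ± 0.10 (SE), with a 95% interval of -0.44 to -0.01, unadjusted p = 0.0421 and adjusted p = 0.194 by limma. Quantile normalization gave -0.13 (adjusted p = 0.506) and median centring -0.16. Without ibuprofen the wild-type mean was 10.54 ± 0.22 (SD, n = 4) and the APP-PS1 mean 10.60 ± 0.13 (SD, n = 5).

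Mpped1 was among the steadiest of the 8, with a range of 0.38 over all arrays and an SD within groups of 0.09, larger than in 22.8% of genes. Its group means lay between 11.90 and 11.96. No difference exceeded 0.05 in size in the 4 comparisons of 2 groups, and their 95% intervals lay within -0.17 and 0.11.

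Man1a gave the smallest p of the 8 in the genotype comparison on control chow. It read 10.81, 10.79, 10.33 and 10.78 in wild-type and 11.07, 10.99, 10.91, 10.86 and 10.91 in APP-PS1 arrays, so that every APP-PS1 array lay above every wild-type array. Wild-type replicate 3 lay far below the other 3. The means were 10.68 ± 0.23 (SD, n = 4) and 10.95 ± 0.08 (SD, n = 5), a difference of 0.27 ± 0.09 (SE), with a 95% interval of 0.09 to 0.45, unadjusted p = 0.00578 and adjusted p = 0.767 by limma. Without wild-type control chow replicate 3 the difference was 0.15. On ibuprofen chow Man1a had a wild-type mean of 10.89 ± 0.13 (SD, n = 5) and an APP-PS1 mean of 10.87 ± 0.11 (SD, n = 5), a difference of -0.03 ± 0.08 (SE, adjusted p = 0.844). Astrocyte markers, all 6 measured, moved with Man1a across arrays. With group means removed, r was 0.676 (permutation p = 0.00237, adjusted p = 0.0177) and rho 0.849 (permutation p = 4e-05, adjusted p = 0.00299) over 19 arrays, 0.71 without the 2 arrays farthest out and 0.631 without the 3 arrays that stand apart. Their list mean was lowest in wild-type control chow replicate 3 (11.48), the array with the lowest Man1a. The list ranged from 11.48 to 11.76 in wild-type control, 11.66 to 11.85 in wild-type ibuprofen, 11.71 to 11.95 in APP-PS1 control and 11.72 to 12.10 in APP-PS1 ibuprofen arrays, and its part in the result was not tested.

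Among the CA2 markers, Pcp4 was as steady as Mpped1. Its group means were 12.78 ± 0.08 (SD, n = 4) in wild-type control, 12.72 ± 0.12 (SD, n = 5) in wild-type ibuprofen, 12.73 ± 0.09 (SD, n = 5) in APP-PS1 control and 12.68 ± 0.05 (SD, n = 5) in APP-PS1 ibuprofen mice. The 95% intervals of its differences lay within -0.18 and 0.07 in the 4 comparisons of 2 groups. The interaction of genotype and diet was 0.01 ± 0.08 (SE).

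Rgs14 read 10.15, 10.28, 10.20 and 10.15 in wild-type control arrays. On ibuprofen chow it read 10.59, 10.30, 10.24, 10.22 and 10.66 in wild-type and 10.13, 10.40, 10.11, 10.10 and 10.14 in APP-PS1 mice. In APP-PS1 control arrays it read 10.48, 10.27, 10.21, 10.19 and 10.18. The 3 highest levels over all arrays belonged to the 3 that stand apart, and APP-PS1 ibuprofen replicate 2 came next. On ibuprofen chow the wild-type mean was 10.40 ± 0.21 (SD, n = 5) and the APP-PS1 mean 10.17 ± 0.13 (SD, n = 5), a difference of -0.23 ± 0.08 (SE), unadjusted p = 0.0125 and adjusted p = 0.148 by limma. Leaving out the 3 gave a difference of -0.08 ± 0.06 (SE, adjusted p = 0.665). For ibuprofen in wild-type mice it was 0.21 ± 0.09 (SE, adjusted p = 0.432) with all arrays and 0.06 ± 0.06 (SE, adjusted p = 0.999) without the 3.

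Amigo2 had the same 3 arrays highest as Rgs14. It read 9.28, 9.52, 9.39 and 9.40 in wild-type control and 9.82, 9.45, 9.43, 9.67 and 10.09 in wild-type ibuprofen arrays. In APP-PS1 mice it read 9.89, 9.46, 9.59, 9.40 and 9.42 on control and 9.38, 9.59, 9.27, 9.46 and 9.46 on ibuprofen chow. All groups overlapped in range. Ibuprofen in wild-type mice gave 0.30 ± 0.12 (SE), with a 95% interval of 0.06 to 0.54, unadjusted p = 0.018 and adjusted p = 0.432 by limma. In APP-PS1 mice it gave -0.12 ± 0.11 (SE, adjusted p = 0.746). The interaction was -0.41 ± 0.16 (SE), with a 95% interval of -0.74 to -0.08 and adjusted p = 0.209. With the 3 left out these values were 0.12 ± 0.08, -0.03 ± 0.07 and -0.15 ± 0.10 (SE), with adjusted p of 0.999, 0.879 and 0.640.

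Bok, the CA3 marker, had a higher mean in APP-PS1 than in wild-type mice on both diets, without passing the threshold. On control chow it read 10.43, 10.32, 10.20 and 10.48 in wild-type and 10.89, 10.38, 10.44, 10.51 and 10.37 in APP-PS1 arrays. On ibuprofen chow it read 10.54, 10.24, 10.17, 10.42 and 10.40 in wild-type and 10.45, 10.52, 10.36, 10.45 and 10.61 in APP-PS1 arrays. The groups overlapped on both diets. The differences were 0.16 ± 0.09 (SE, adjusted p = 0.907) on control and 0.12 ± 0.09 (SE, adjusted p = 0.363) on ibuprofen chow. Averaged over the diets, the difference was 0.14 ± 0.07 (SE), with a 95% interval of 0.01 to 0.28, unadjusted p = 0.0391 and adjusted p = 0.626 by limma. Leaving out the 3 arrays that stand apart gave 0.13 ± 0.05 (SE, adjusted p = 0.345), with 0.07 ± 0.07 (SE, adjusted p = 0.838) on control chow and 0.20 ± 0.07 (SE, adjusted p = 0.328) on ibuprofen chow. Leaving out APP-PS1 control chow replicate 1 alone also gave 0.07 on control chow. With array weights, which give noisier arrays less weight, the difference on ibuprofen chow was 0.24 with adjusted p = 0.0323, the only one of 12 alternative settings and 19 fits without 1 array in which any of the 8 markers passed in any comparison. Over the other 11 settings its adjusted p ran up to 0.388.

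The count of markers with an unadjusted p under 0.05 is set here beside the share over all genes, and at 8 markers it moves in large steps. For genotype on control chow it was 1 of 8 (Man1a), beside 5.87% of all genes, with 0 of 8 and 0.01% of genes past the adjusted threshold. Man1a was also the 1 marker of 8 whose groups did not overlap there, beside 3.84% of genes. For genotype on ibuprofen chow it was 3 of 8 (Fibcd1, Rgs14 and Amigo2, all lower in APP-PS1), beside 24.5% of genes and 18.2% of genes in that direction. There 0 of 8 and 0.271% of genes passed the adjusted threshold, and 0 of 8 had groups that did not overlap, beside 2.29% of genes.

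For ibuprofen in wild-type mice it was 3 of 8 (Man1a, Rgs14 and Amigo2, all higher), beside 11% of genes and 9.08% in that direction, with 0 of 8 and 0% past the adjusted threshold. For ibuprofen in APP-PS1 mice it was 0 of 8, beside 6.48% of genes, with 0% past the adjusted threshold. No marker had groups without overlap in either ibuprofen comparison, beside 2.24% of genes in wild-type and 2.77% in APP-PS1 mice. All 8 markers had a difference below 0 for ibuprofen in APP-PS1 mice, of -0.04 to -0.12, and 41.8% of all genes lay above 0. Without the 3 arrays that stand apart 1 of 8 lay above 0. Bok gave 0.053 without APP-PS1 control chow replicate 1 alone. For the interaction the count with an unadjusted p under 0.05 was 3 of 8 (Man1a, Rgs14 and Amigo2, all below 0). Beside it stood 20.5% of genes and 16% in that direction, with 0% past the adjusted threshold. For genotype averaged over diets it was 1 of 8 (Bok), beside 7.7% of genes, with 0.0251% past the adjusted threshold. For ibuprofen averaged over genotypes it was 0 of 8, beside 1.74% of genes, with 0% past the adjusted threshold. The comparisons share groups and are not separate evidence.

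The median difference of the 8 markers was 0.07 for genotype without ibuprofen and -0.13 with it, against 0.02 and -0.05 over all genes. It was -0.06 for ibuprofen in APP-PS1 and 0.15 in wild-type mice, against -0.02 and 0.05, and -0.21 for the interaction, against -0.07. Without the 3 arrays that stand apart these 5 medians were 0.02, -0.07, -0.04, 0.06 and -0.09. Over all genes they were then -0.0006, 0.0002, -0.0006, 0.0022 and 0.003, so the medians over all genes moved toward 0 as well. Unadjusted p then lay under 0.05 for 1 of 8 on ibuprofen chow (Bok, beside 9.96% of genes) and for 0 of 8 in the interaction (9.21%), for ibuprofen in wild-type mice (3.47%), in APP-PS1 mice (9.06%) and on average (3.03%). For genotype averaged over diets it did so for 2 of 8, Man1a and Bok, beside 9.5% of genes. For genotype on control chow Man1a remained under it, at 0.24 ± 0.09 (SE), beside 8.27% of genes. In the plot of differences, Rgs14 and Amigo2 moved most between both settings in the interaction and for ibuprofen in wild-type mice.

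**Figure D2:**
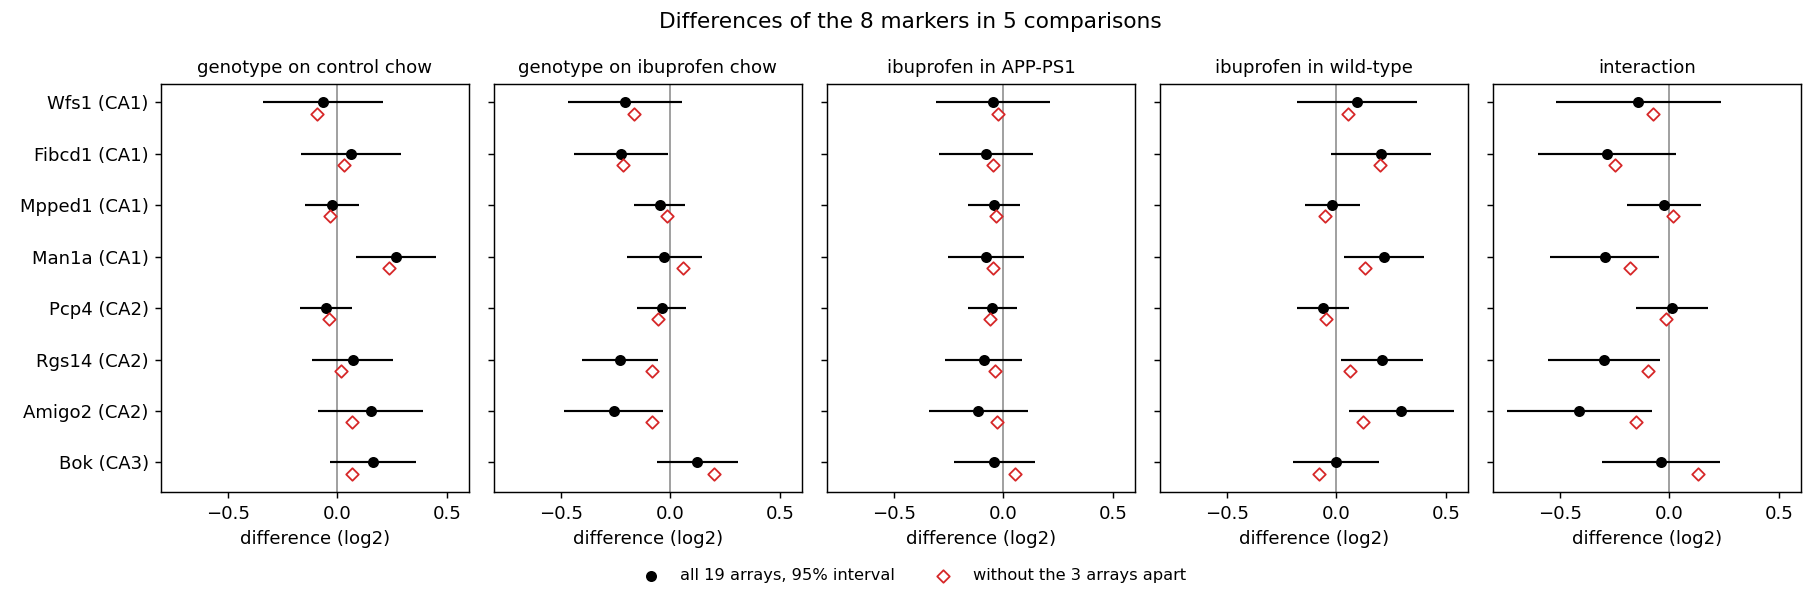
Difference on the log2 scale (x axis) of each marker (y axis) in 5 comparisons, with 95% intervals from limma over all 19 arrays (black) and the value without the 3 arrays that stand apart (red diamonds). The interaction of Amigo2 is -0.41 with all arrays and -0.15 without the 3.

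The 8 markers did not vary together as 1 group across arrays. With group means removed, the median Pearson correlation over the 28 pairs was 0.18, and 16 of 28 were above 0. The p-values below come from 100000 random permutations, two-sided, with Benjamini-Hochberg adjustment over the 28 pairs. Rgs14 and Amigo2, both of CA2, were the closest pair, with r = 0.854 (permutation p = 1e-05, the smallest that these permutations can give, adjusted p = 0.00028) and rho = 0.774 (permutation p = 0.00018, adjusted p = 0.00504). The r was 0.793 without the 2 arrays farthest out in Rgs14 and 0.521 without the 3 arrays that stand apart. It was the only pair whose r and rho both passed.

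Pcp4, the third CA2 marker, did not follow them, with r = -0.158 for Rgs14 (permutation p = 0.519, rho = -0.168, permutation p = 0.489) and -0.237 for Amigo2 (permutation p = 0.329, rho = -0.060, permutation p = 0.808). Pcp4 and Mpped1 ran opposite, with r = -0.636 (permutation p = 0.00325, adjusted p = 0.0302) and rho = -0.568 (permutation p = 0.0123, adjusted p = 0.0864). That r was -0.498 without the 2 farthest arrays and -0.400 without the 3 that stand apart. Amigo2 and Bok gave r = 0.664 (permutation p = 0.00224, adjusted p = 0.0302) and rho = 0.582 (permutation p = 0.0104, adjusted p = 0.0864), 0.581 without the 2 farthest arrays and 0.386 without the 3.

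Within CA1, Wfs1 and Mpped1 varied together, with r = 0.626 (permutation p = 0.00432, adjusted p = 0.0302) and rho = 0.537 (permutation p = 0.0192, adjusted p = 0.108). That r was 0.489 without the 2 farthest arrays and 0.547 without the 3. Wfs1 and Fibcd1 gave r = -0.198 (permutation p = 0.418) and rho = -0.198 (permutation p = 0.413). Markers of the same field were therefore not closer to each other than markers of different fields in every case, as the grid of correlations shows.

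**Figure D3:**
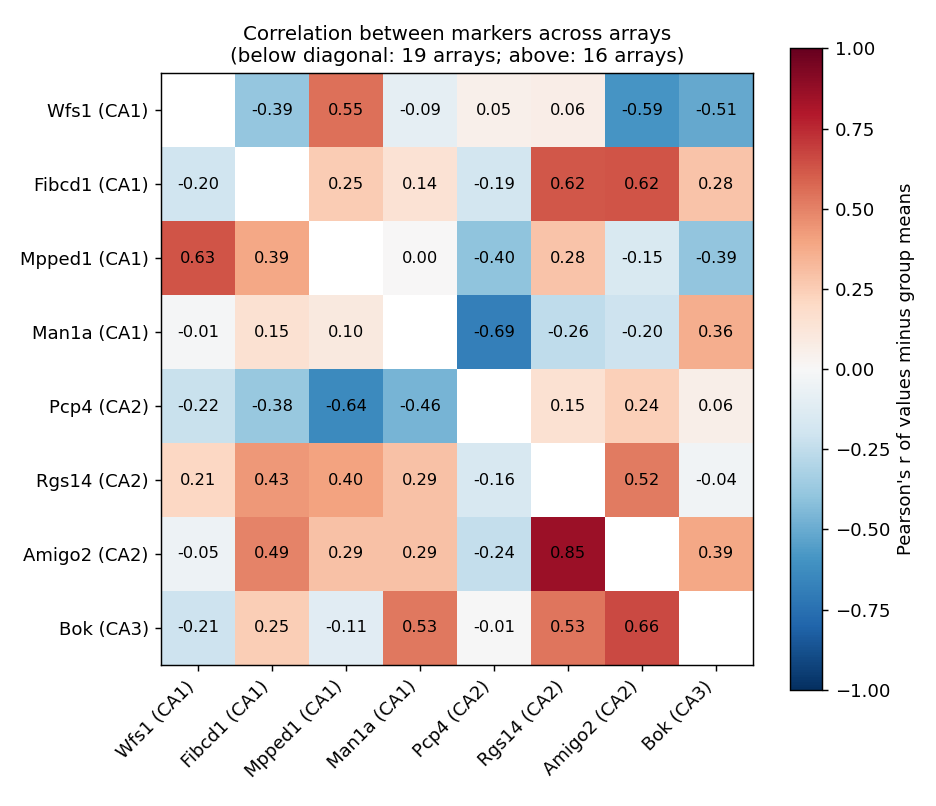
Pearson correlation (colour and number) of each pair of markers (both axes) across arrays after removing group means, over 19 arrays below the diagonal and over the 16 arrays left without the 3 that stand apart above it. Rgs14 and Amigo2 give 0.85 and 0.52, and Mpped1 and Pcp4 give -0.64 and -0.40.

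The markers were also set against the array means of 14 fixed lists of other cell types and regions, 112 relations in all, of which 15 passed for r and 9 for both r and rho after Benjamini-Hochberg adjustment. Fibcd1 followed the 7 other CA1 markers measured, with r = 0.717 (permutation p = 0.00047, adjusted p = 0.0105) and rho = 0.702 (permutation p = 0.0011, adjusted p = 0.0205). Its r was 0.693 without the 2 farthest arrays and 0.901 without the 3 that stand apart. Wfs1 gave 0.010 with the same list (permutation p = 0.969, rho = 0.026, permutation p = 0.917). By r alone it passed with neocortex and subiculum markers, 9 of 9 measured, with r = 0.693 (permutation p = 0.00101, adjusted p = 0.0177) and rho = 0.598 (permutation p = 0.00747, adjusted p = 0.0761). That r was 0.589 without the 2 farthest arrays and 0.692 without the 3. Wfs1 also gave r = 0.535 with striatum and 0.497 with interneuron markers (permutation adjusted p = 0.0964 and 0.124), and 0.549 and 0.531 without the 3. With the other CA3 markers r was -0.324 (permutation adjusted p = 0.411), and -0.840 without the 3.

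In APP-PS1 ibuprofen arrays, where Wfs1 spread most, replicate 3 had the highest level of both Wfs1 (11.67) and the neocortex and subiculum markers (10.12). Replicate 4 had the lowest of both (10.79 and 9.68). The neocortex and subiculum list ranged from 9.83 to 10.26 in wild-type control, 9.81 to 10.05 in wild-type ibuprofen, 9.93 to 10.10 in APP-PS1 control and 9.68 to 10.12 in APP-PS1 ibuprofen arrays, and its part in the spread of Wfs1 was not tested.

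Rgs14 and Amigo2 followed the other CA1 markers, with r = 0.845 (permutation p = 1e-05, adjusted p = 0.000373; rho = 0.696, adjusted p = 0.0221) and 0.830 (permutation p = 1e-05, adjusted p = 0.000373; rho = 0.767, adjusted p = 0.0042). The r were 0.751 and 0.718 without the 2 farthest arrays and 0.639 and 0.587 without the 3. With the 7 other CA2 markers measured, r was 0.255 (permutation p = 0.292, rho = 0.300) and 0.238 (permutation p = 0.330, rho = 0.151). That list holds Sostdc1, which choroid plexus also makes. Its mean was highest in wild-type ibuprofen replicate 5 (9.671) and lowest in replicate 3 (9.163), where the choroid plexus means were 10.503 and 8.101. The part of choroid plexus in it was not tested, so these low r are not read as a lack of relation to CA2. Amigo2 followed the 7 other CA3 markers as closely as the CA1 list (r = 0.840, permutation p = 1e-05, adjusted p = 0.000373, and rho = 0.818, adjusted p = 0.00299), with 0.816 without the 2 farthest arrays and 0.582 without the 3. Rgs14 gave r = 0.660 with the CA3 list (permutation p = 0.00202, adjusted p = 0.0177; rho = 0.628, adjusted p = 0.0549), and 0.106 without the 3. Rgs14 also followed the 6 interneuron markers (r = 0.751, permutation p = 0.00037, adjusted p = 0.0104; rho = 0.718, adjusted p = 0.0186) and the 6 microglia markers (r = 0.688, permutation p = 0.00139, adjusted p = 0.0177; rho = 0.807, adjusted p = 0.00299). Without the 2 farthest arrays these r were 0.583 and 0.768, and without the 3 arrays that stand apart 0.291 and 0.199, so these relations did not hold without the 3. Amigo2 with microglia markers (r = 0.663, permutation p = 0.00200, adjusted p = 0.0177; rho = 0.665, adjusted p = 0.0315) and Rgs14 with 7 striatum markers (r = 0.665, permutation p = 0.00199, adjusted p = 0.0177; rho = 0.665, adjusted p = 0.0315) also passed by both measures. Without the 2 farthest arrays their r were 0.751 and 0.597, and without the 3 arrays 0.304 and 0.194. By r alone, Amigo2 passed with endothelial (r = 0.673) and interneuron markers (r = 0.661), and Rgs14 with thalamus markers (r = 0.637). Each had a permutation adjusted p of 0.0177, and their rho were 0.475, 0.565 and 0.575. These r were 0.417, 0.371 and 0.516 without the 2 farthest arrays and 0.107, -0.006 and 0.288 without the 3. Over 19 arrays the relations of Rgs14 and Amigo2 were thus not particular to CA1 and CA3 markers. With genes of all pyramidal cells their r were 0.230 and 0.178 (permutation adjusted p = 0.578 and 0.682). These were 0.696 and 0.656 without the 2 farthest arrays and 0.716 and 0.681 without the 3. With dentate granule markers their r were 0.276 and 0.270 (permutation adjusted p = 0.506 for each). These were -0.311 and -0.164 without the 2 farthest arrays and 0.576 and 0.517 without the 3. Interneuron means ran from 10.73 to 10.94 in wild-type control, 10.73 to 11.03 in wild-type ibuprofen, 10.62 to 10.91 in APP-PS1 control and 10.63 to 10.84 in APP-PS1 ibuprofen arrays. Microglia means ran from 9.44 to 9.56, 9.42 to 9.76, 9.50 to 9.66 and 9.48 to 9.77 in the same order. Bok followed the 7 other CA3 markers, with r = 0.658 (permutation p = 0.00211, adjusted p = 0.0177) and rho = 0.588 (permutation p = 0.00964, adjusted p = 0.0824), 0.726 without the 2 farthest arrays and 0.451 without the 3.

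**Figure D4:**
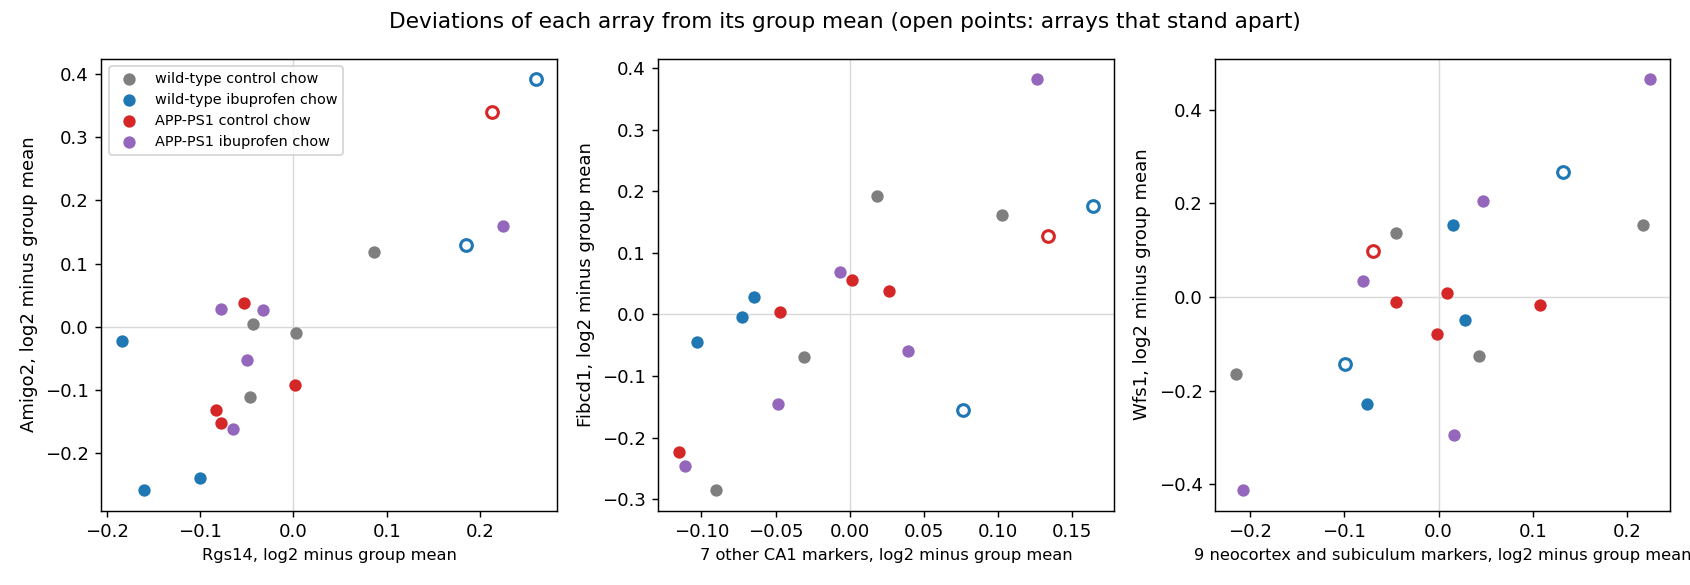
Log2 level minus the group mean in each of the 19 arrays, for Amigo2 (y axis) against Rgs14 (x axis), Fibcd1 against the mean of 7 other CA1 markers, and Wfs1 against the mean of 9 neocortex and subiculum markers. Open points are the 3 arrays that stand apart, which lie at the upper right of the left panel, and r over 19 arrays is 0.854, 0.717 and 0.693.

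The genes most alike to each marker were taken as those with the highest Pearson correlation over the 19 arrays with group means removed. They are a description, chosen as the extremes over all genes. Fibcd1 was closest to Camkv (0.909), Galnt16 (0.906) and St6galnac5 (0.898), and Wfs1 to Fnbp1l (0.891), Camk2d (0.890) and Igsf21 (0.889). These values were 0.881 to 0.919 without the 3 arrays that stand apart. Mpped1 was closest to Galnt9 (0.896), Pnkd (0.886) and Rap1gap2 (0.884), and Man1a to Lix1 (0.868), Sprn (0.865) and Mfsd14a (0.848). Pcp4 was closest to Rpl9 (0.873), Rbbp6 (0.820) and Dynlrb1 (0.812), which without the 3 arrays gave 0.789, 0.632 and 0.602. Rgs14 was closest to Msl3l2 (0.961), Elp3 (0.957) and Bcorl1 (0.956), and Amigo2 to Ccdc32 (0.956), Cybrd1 (0.946) and Mief2 (0.940). For Amigo2 these were 0.879, 0.792 and 0.765 without the 3 arrays. Bok was closest to Slc35a2 (0.845), Vmn1r172 (0.842) and Bloc1s4 (0.838), with 0.824, 0.687 and 0.546 without the 3.

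Other markers of the same fields, fixed by name, gave a wider view. For CA1 these were 7 measured genes, and 0 of 7 passed in any comparison over all genes. On ibuprofen chow 1 of 7 lay above 0 for genotype, beside 37.8% of all genes, with a median of -0.21, and 4 of 7 had an unadjusted p under 0.05, beside 24.5% of all genes. Spink8, a secreted protease inhibitor that marks CA1, gave -0.40 ± 0.11 (SE, adjusted p = 0.0923), and Htr1a, a serotonin receptor, -0.32 ± 0.10 (SE, adjusted p = 0.131). Lefty1, a secreted inhibitor of nodal signalling, gave -0.23 ± 0.10 (SE, adjusted p = 0.170), and Gpr161, a receptor of primary cilia, -0.21 ± 0.08 (SE, adjusted p = 0.151). For ibuprofen in wild-type mice 6 of 7 lay above 0, beside 66.8% of all genes, with a median of 0.19. An unadjusted p under 0.05 was found for 3 of 7, all higher, beside 11% of all genes and 9.08% in that direction. These were Spink8 (0.25 ± 0.11), Htr1a (0.25 ± 0.11) and Gpr161 (0.19 ± 0.09, all SE), each with adjusted p = 0.432. In the interaction 5 of 7 had an unadjusted p under 0.05, all below 0, beside 16% of all genes in that direction, from -0.48 ± 0.15 (SE, adjusted p = 0.208) for Htr1a to -0.20 ± 0.09 (SE, adjusted p = 0.237) for Pou3f1, a transcription factor. Htr1a in APP-PS1 mice on ibuprofen (-0.22 ± 0.10, SE, adjusted p = 0.716) and Spink8 in the average genotype comparison (-0.19 ± 0.08, SE, adjusted p = 0.595) were the others. Each was 1 of 7, beside 6.48% and 7.7% of all genes. Without the 3 arrays that stand apart the median was -0.11 for genotype on ibuprofen chow. There 1 of 7 had an unadjusted p under 0.05, beside 9.96% of all genes. For ibuprofen in wild-type mice the median was 0.08, with 0 of 7 beside 3.47%. In the interaction the median was -0.17, against -0.31 with all arrays, with 1 of 7 beside 9.21%.

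Of 8 other CA2 markers 7 were measured, Ntf3 being the other, and 0 of 7 passed. Their median was near 0 in every comparison of 2 groups (0.01 to 0.04). Actn2, an actin-binding protein, gave -0.31 ± 0.10 (SE, adjusted p = 0.136) and Avpr1b, a vasopressin receptor, 0.25 ± 0.10 (SE, adjusted p = 0.171) for genotype on ibuprofen chow. Actn2 gave -0.34 ± 0.15 (SE, adjusted p = 0.220) in the interaction. With an unadjusted p under 0.05, 1 of 7 was higher and 1 of 7 lower for genotype on ibuprofen chow, beside 24.5% of all genes in either direction. In the interaction 1 of 7 had such a p, beside 20.5%. Sostdc1, a secreted antagonist that choroid plexus also makes, had SEs of 0.57 to 0.60 in these comparisons, several times those of the rest. Leaving out the 3 arrays that stand apart gave a median of 0.15 for genotype on ibuprofen chow and -0.08 for ibuprofen in wild-type mice.

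All 7 other CA3 markers were measured and 0 of 7 passed. For genotype on control chow 6 of 7 lay above 0 with a median of 0.11, beside 57.9% of all genes above 0. On ibuprofen chow it was 1 of 7 with a median of -0.08, beside 37.8%. For ibuprofen in wild-type mice 6 of 7 lay above 0, with a median of 0.13, beside 66.8%. An unadjusted p under 0.05 was found for 2 of 7 in genotype on ibuprofen chow, beside 24.5% of all genes, and for 2 of 7 in the interaction, beside 20.5%. For ibuprofen 1 of 7 had it in APP-PS1 mice, beside 6.48%, and 1 of 7 in wild-type mice, beside 11%. Iyd, an iodotyrosine deiodinase, gave -0.33 ± 0.13 (SE, adjusted p = 0.153) for genotype on ibuprofen chow, -0.30 ± 0.13 (SE, adjusted p = 0.716) for ibuprofen in APP-PS1 mice and -0.50 ± 0.19 (SE, adjusted p = 0.208) in the interaction. Cdh24, a cadherin, gave -0.22 ± 0.09 (SE, adjusted p = 0.163) for genotype on ibuprofen chow, and Cpne4, a copine, -0.26 ± 0.12 (SE, adjusted p = 0.223) in the interaction. Grik4, a kainate receptor subunit, gave 0.18 ± 0.07 (SE, adjusted p = 0.432) for ibuprofen in wild-type mice. Bok, in contrast, had its higher values in APP-PS1 mice on ibuprofen chow too, a difference between genes that was not tested. Leaving out the 3 arrays gave medians of 0.06, -0.06 and 0.09.

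Genes of all pyramidal cells, 6 of 6 measured, had medians of -0.06 to 0.01 in the comparisons of 2 groups, and 0 of 6 passed. Neurod1, a factor that granule cells also use, gave -0.25 ± 0.09 (SE, adjusted p = 0.150) for genotype on ibuprofen chow and -0.21 ± 0.09 (SE, adjusted p = 0.716) for ibuprofen in APP-PS1 mice. It was the 1 of 6 with an unadjusted p under 0.05 in each, beside 24.5% and 6.48% of all genes. Of 7 dentate granule cell markers, 6 lay below 0 for genotype on ibuprofen chow, with a median of -0.29, beside 37.8% of all genes above 0. There 3 of 7 were called, all lower in APP-PS1 mice, beside 0.271% of all genes called. Without the 3 arrays that stand apart the median was -0.38 and 2 of 7 were called, beside 33 of 19938 genes. Prox1 was 0.46 ± 0.08 (SE, adjusted p = 0.0128) lower in APP-PS1 mice, at 10.28 against 10.74. In the same comparison the medians with all arrays were -0.29 for the dentate list, -0.21 for the other CA1 markers and -0.13 for the 8 CA markers. Whether these lists differ was not tested. The dentate list holds Tdo2 and Dsp, whose values in these arrays were known when it was chosen, so the count is not independent evidence.

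**Figure D5:**
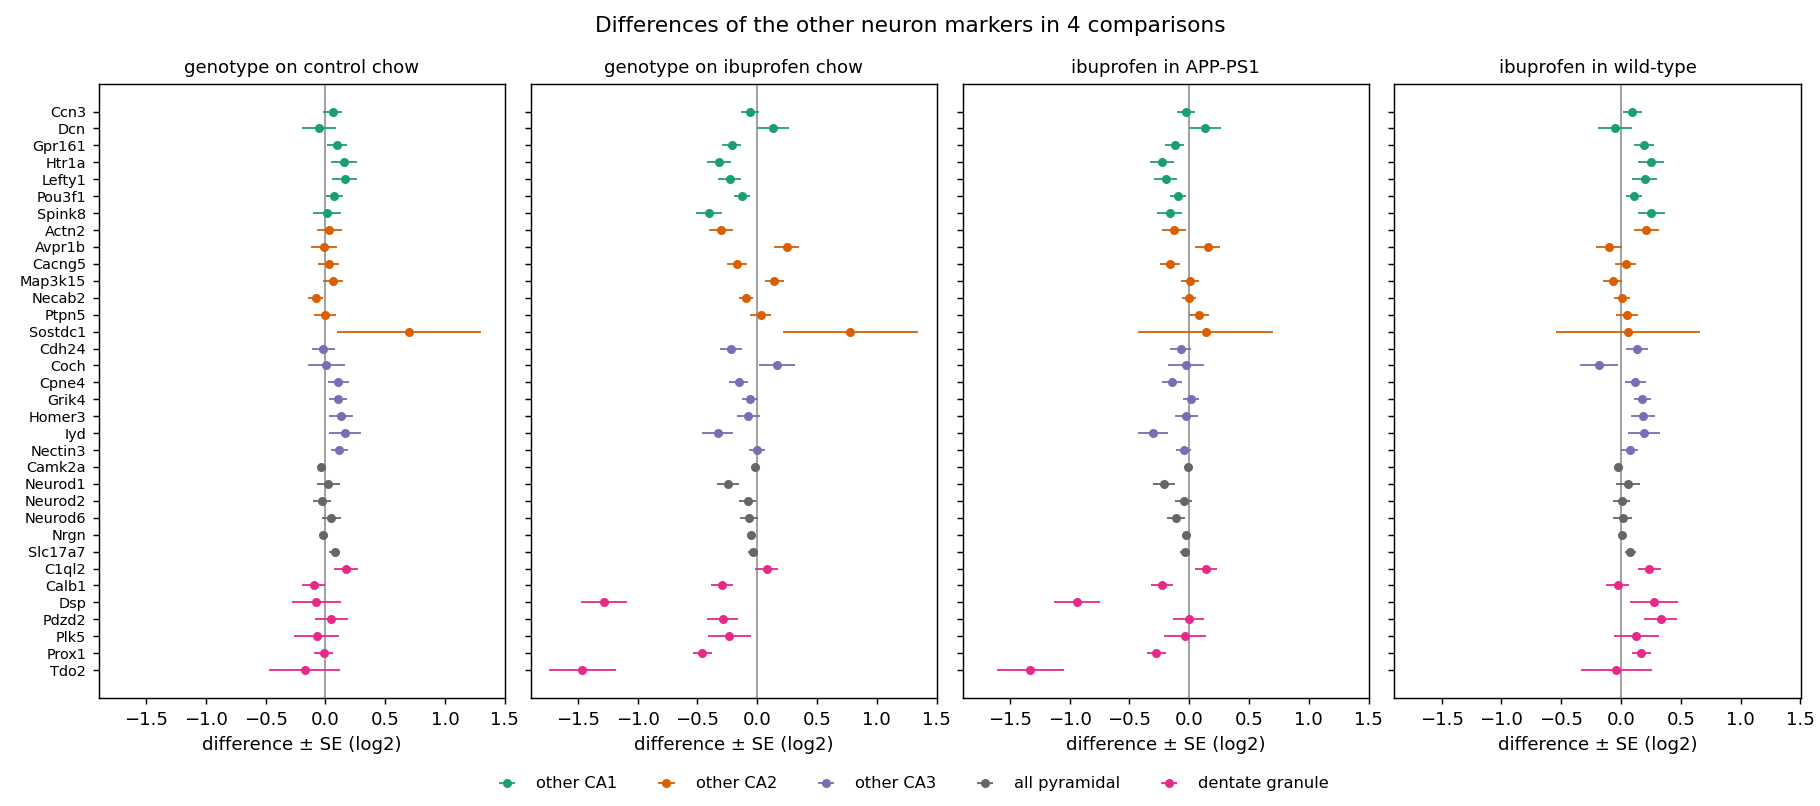
Difference ± SE on the log2 scale (x axis) of other CA1, CA2 and CA3 markers, genes of all pyramidal cells and dentate granule cell markers (y axis, coloured by list) in 4 comparisons. For genotype on ibuprofen chow the CA lists have medians of -0.21, 0.03 and -0.08 and the dentate list -0.29.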

How the data were processed

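RNA of 19 hippocampus samples was measured on Affymetrix arrays. The authors deposited log2 values per probe set. The submitters' processing notes name RMA and Partek 6.5, with settings not given in the sources used here. Background correction and normalization in RMA pull arrays together, so small differences depend on them. Values ran from 3.46 to 14.80. Of 35556 probe sets, 21789 had 1 gene symbol in a 2016 annotation, 1621 several and 12146 none here. Each gene took its probe set with the highest mean, giving 19938 genes.

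One fit (limma 3.58.1, R 4.3.3) held 4 group means with an intensity trend, 15 residual and 6.65 prior degrees of freedom. It gave 7 two-sided comparisons, namely the genotype effect on either chow, the ibuprofen effect in either genotype, their interaction and both averages, adjusted by Benjamini and Hochberg over all genes at 0.05. Errors of differences are SE, and of means SD. The number of arrays limits the precision. The fit was checked on simulated data.

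The members, marker lists and alternatives were chosen with earlier results of these data known. Named were all 8 members, listed markers with an unadjusted p under 0.05, and the 3 genes most alike to each member. The alternatives were other normalization, centring, filtering, probe set and empirical Bayes choices, array weights, fewer groups or arrays, a replicate block and covariates for choroid plexus and oligodendrocyte markers. Figures used Python 3.11.15 and matplotlib 3.10.9.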

Additional observations from a re-analysis of the deposited data

Results flagged for a closer look

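In 5 of the 32 combinations of marker and group, 1 array lay farther from the rest than Dixon's test allows at the 95% level. Chance alone flags about 1 group in 20. The share flagged over all genes was not computed, and 3 arrays stand apart over all probe sets. The count is therefore not read as an excess in these markers.

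Man1a read 10.33 in wild-type control chow replicate 3, against 10.78 to 10.81 in the other 3 arrays. Mpped1 read 12.13 in wild-type ibuprofen chow replicate 5, against 11.86 to 11.92 in the other 4. Rgs14 read 10.48 in APP-PS1 control chow replicate 1, against 10.18 to 10.27, and 10.40 in APP-PS1 ibuprofen chow replicate 2, against 10.10 to 10.14. Bok read 10.89 in APP-PS1 control chow replicate 1, against 10.37 to 10.51. Of these 5 values, 3 belong to arrays that stand apart over all probe sets.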

How the results depend on the processing

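The 11 marker differences with an unadjusted p under 0.05 were chosen by that p in these same data. They kept their sign in all 128 fits under other settings and in all 209 fits that left out 1 array. In these fits 0 of them were called. Many of these fits cannot move a difference of 2 group means, such as leaving out an array of a group outside the comparison. For genotype on ibuprofen chow, Amigo2 stayed at -0.258 without APP-PS1 control chow replicate 1, for example. The sign count is therefore not evidence of stability. The counts of genes called over all genes moved more, and the causes were not tested. The count for genotype averaged over diets was 5, and 11 with quantile normalization, 8 with median centring, 342 with array weights, 8 without the 3 arrays that stand apart and 3 to 52 over the leave-outs. For genotype on control chow it was 2, and 8 with array weights and 2 to 4 over the leave-outs. For genotype on ibuprofen chow it was 54, and 128 without the dimmest genes, 91 with robust empirical Bayes, 1004 with array weights, 5 with the compared groups alone, 33 without the 3 arrays and 10 to 1490 over the leave-outs. With array weights it was 108 against 0 for ibuprofen in APP-PS1 mice, 2 against 0 in wild-type mice and 174 against 0 for the interaction. Leave-outs gave 0 to 3 for ibuprofen in APP-PS1 mice and 0 to 13 for the interaction.

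The replicate numbers are shared between groups, and the labels tie no number to a shared animal or batch. The main fit therefore did not pair the samples. The correlation of deviations between arrays of the same number ran from -0.27 to 0.60 over 27 pairs. Its median was 0.129, against -0.047 for arrays of different numbers. Of 19 arrays, 11 correlated best with an array of their own number. This is a hint from the data only, and no chance level for the count was computed. With the replicate number as a block, 4 genes were called for genotype without ibuprofen and 197 with it. Without the block the counts were 2 and 54. Whether the numbers mark a shared batch was not tested.

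For the markers, leaving out 1 array or changing a setting moved some differences by over 1.5 times. For genotype on ibuprofen chow, Amigo2 gave -0.16 without wild-type ibuprofen chow replicate 5, against -0.26. For ibuprofen in wild-type mice, Man1a gave 0.10 without wild-type control chow replicate 3, against 0.22. In the interaction Man1a gave -0.18 without that array, against -0.30. The Bok difference on control chow was 0.07 without APP-PS1 control chow replicate 1, against 0.16. For genotype on control chow Man1a gave 0.15 without wild-type control chow replicate 3, against 0.27. Quantile normalization moved Rgs14 on ibuprofen chow to -0.13 and Amigo2 to -0.14, and array weights moved them to -0.14 and -0.07. In the interaction quantile normalization gave -0.17 for Man1a, -0.15 for Rgs14 and -0.24 for Amigo2, and array weights -0.14, -0.17 and -0.19. Median centring gave -0.20 for Man1a there, and the oligodendrocyte covariate -0.20 for Rgs14. For ibuprofen in wild-type mice array weights gave 0.12 for Man1a, 0.11 for Rgs14 and 0.12 for Amigo2, and quantile normalization 0.13 for Rgs14.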
